A study of Mus musculus with 8 samples.

Results

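The 10 genes described here belong to the VEGF and angiopoietin pathways and were measured in left ventricles of mice made hypertensive. They were the ligand genes Vegfa, Vegfb and Vegfc, the VEGF receptor genes Flt1, Kdr and Flt4, the ligand genes Angpt1 and Angpt2, and the receptor genes Tek and Tie1. They were picked by gene name from a table of 55679 genes, and 10 of the 10 were among the 19364 that averaged 0.1 FPKM or more and were tested. FPKM is the number of fragments of a gene, scaled for transcript length and for library size. The libraries analysed here came from 4 left ventricles of the control group, from wild-type (WT) mice infused with saline for 7 days, and 4 of the hypertensive-LVH group, from WT mice given ANG II (angiotensin II, which narrows vessels) for the same time from an implanted pump at 1500 ng/kg/min. LVH stands for left ventricular hypertrophy, the thickening of the ventricle wall. Per the methods the mice were male C57BL/6J, and their age is not given in the sources used here. Neither group carried a transgene or deletion, and the hearts of both were flushed with saline before the ventricle was taken. The methods speak of biological replicates and describe more of them per group than the 4 analysed here. The labels number these samples without naming the animals. P-values measure the spread between these samples.

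VEGF-A, made by many cells that run short of oxygen, binds VEGFR1 (Flt1) and VEGFR2 (Kdr) on endothelial cells, and VEGFR2 carries most of the signal for vessel growth and leakiness while VEGFR1 binds the ligand tightly and can act as a decoy. VEGF-B binds VEGFR1 only and is abundant in heart muscle, and VEGF-C binds VEGFR3 (Flt4), the receptor best known from lymphatic vessels. Angiopoietin 1 activates the receptor Tie2 (Tek) and keeps vessels quiet, angiopoietin 2 can oppose it, and Tie1 is a related receptor that modifies Tie2 signalling.

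The sequences before the start sites of Vegfb and Vegfc are shown because these are the ligand genes that passed the test below, in opposite directions. Each is the 250 bases upstream of the RefSeq start (GRCm38.p6), read in the direction of transcription, and capitals mark matches to the GC box GGGCGG on either strand, where adjoining capitals can hold overlapping matches. Vegfb lies on the minus strand of chromosome 19 and its window is chr19:6987652-6987901. Vegfc lies on the plus strand of chromosome 8 and its window is chr8:54077282-54077531.
Vegfb: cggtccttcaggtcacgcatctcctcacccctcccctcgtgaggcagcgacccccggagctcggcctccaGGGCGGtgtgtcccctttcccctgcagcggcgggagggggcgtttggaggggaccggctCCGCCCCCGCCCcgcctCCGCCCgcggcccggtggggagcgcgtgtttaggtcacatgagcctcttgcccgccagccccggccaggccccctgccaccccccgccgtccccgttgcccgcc
Vegfc: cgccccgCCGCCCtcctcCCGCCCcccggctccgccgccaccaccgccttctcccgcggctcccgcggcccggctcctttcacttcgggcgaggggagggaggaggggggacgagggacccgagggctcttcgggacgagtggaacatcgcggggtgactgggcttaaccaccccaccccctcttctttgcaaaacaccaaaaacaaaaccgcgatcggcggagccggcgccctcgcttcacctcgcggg
The Vegfb window held 4 matches and 76.4% G and C, and the Vegfc window 2 matches and 71.6%, against a median of 52.4% G and C over the same length of 32851 mouse promoters. A GC box match occurred in 32.7% of those promoters. The core of the hypoxia response element was searched in both its forms, on both strands. Its A form, ACGTG, was found in 16.6% of all promoters and in neither of these windows, and its G form, GCGTG, in 28.2% of all promoters, at 2 places in the Vegfb window and not in that of Vegfc. The AP-1 letters TGANTCA, in 6.75% of all promoters, were in neither window. Windows were found for 8 of the 10 genes, all but Angpt1 and Angpt2. No exon of the annotation lay in the windows of Vegfb and Vegfc, whereas the 250 bases before the RefSeq start of Flt4 lay inside an annotated exon of Flt4 and are not shown.

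Libraries held 14455654 to 16564828 fragments. Of these, mitochondrially encoded genes took 26.3 to 26.9% in control and 19.2 to 21.8% under ANG II. Cardiomyocyte markers, summed, were at 33723 to 34658 FPKM in controls and 24400 to 26487 FPKM under ANG II, so the tissue carried the defining genes of its label. Over all genes tested the median log2 fold change (ANG II against control) was 0.15 as deposited and 0.0025 after median-of-ratios scaling, which sets the median gene level between libraries. Changes below are given as deposited unless stated, and those of Vegfa, Vegfb, Vegfc, Flt4 and Kdr are also given relative to the median of 0.15. A gene passed the test when its limma adjusted p (Benjamini-Hochberg over all genes tested) was under 0.05, and was called when its absolute log2 fold change was also above 0.5.

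Among the 10 genes, Vegfc and Flt4 were higher and Vegfb was lower under ANG II, while Vegfa, Flt1, Kdr, Angpt1, Angpt2, Tek and Tie1 did not pass the test. Thus 3 of 10 passed, against 33.3% of all genes tested, with 2 higher (28.4% of all genes) and 1 lower (4.91%). Only Vegfc was called, against 15.4% of all genes. The groups did not overlap for 2 of the 10, Vegfb and Flt4, against 33.7% of all genes. The median log2 fold change of the 10 was 0.04, beside 0.15 over all genes. These shares are near those of all genes, so the results below concern single genes.

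**Figure D1:**
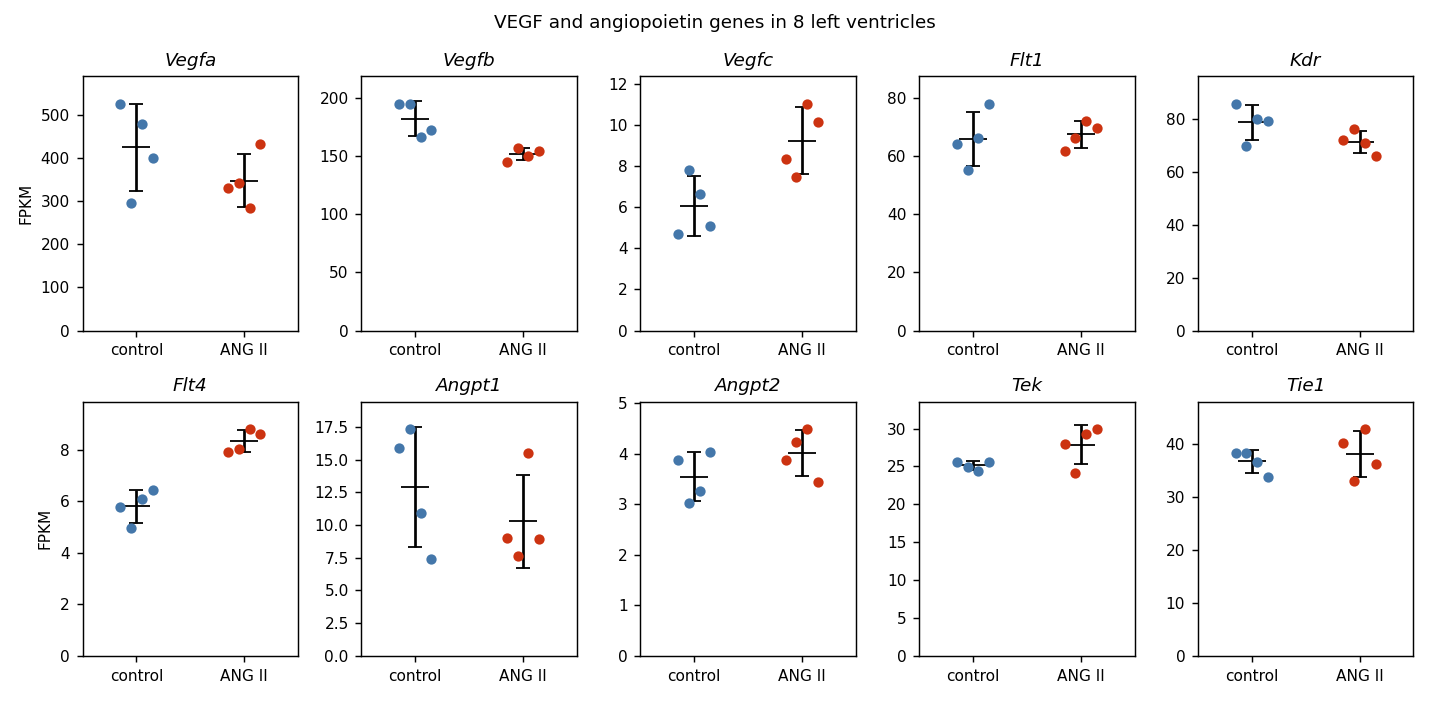
FPKM of each of the 10 genes (vertical axis, from 0, a separate scale per gene) in the 4 control (blue) and 4 ANG II (red) libraries; points are libraries, horizontal ticks are means and bars 1 SD. Flt4 is higher in each of the ANG II libraries than in any control (7.91 to 8.80 against 4.95 to 6.43) and Vegfb is lower (145 to 157 against 166 to 195), while the other panels overlap.

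Vegfa had the highest mean FPKM of the 10 genes in both groups and did not pass the test. It was measured at 525, 295, 478 and 400 FPKM in control 1 to 4 and at 330, 342, 285 and 432 FPKM in ANG II 1 to 4. The lowest control lay below 3 of the 4 ANG II libraries, so the groups overlapped. The means were 425 ± 100 and 347 ± 61.9 FPKM (SD, n = 4 each). The log2 fold change was -0.27 (SE 0.18, 95% interval -0.67 to 0.13, limma adjusted p = 0.275), or -0.42 relative to the median gene. The interval takes in 0, and with a coefficient of variation of 23.6% among controls a change of this size was not detectable. Without control 2, the low control, the value was -0.44 (limma adjusted p = 0.0444), the only fit with a library left out in which Vegfa passed. Without control 1, the highest control, it was -0.16 (limma adjusted p = 0.536).

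Vegfb, whose protein binds VEGFR1 only, fell. Its levels were 195, 195, 166 and 172 FPKM in controls and 145, 157, 150 and 155 FPKM under ANG II. Each ANG II library lay below each control. The mean dropped from 182 ± 14.98 to 152 ± 5.29 FPKM (SD, n = 4 each), 0.833 times the control mean. The log2 fold change was -0.26 (SE 0.063, 95% interval -0.40 to -0.12, limma adjusted p = 0.0101), or -0.41 relative to the median gene. It stayed lower and passed the test under 18 of 18 alternatives, with limma adjusted p between 0.00026 and 0.0332. Among cardiomyocyte markers 4 of 8 were lower (Myh6, Tnni3, Pln and Myl2), 0 were higher, and the median log2 fold change was -0.30. Actn2, Tnnt2, Ryr2 and Ttn did not pass the test. After median-of-ratios scaling 6 of the 8 were lower (median -0.53), and after quantile normalization 3 were (median -0.10). The ranges of their summed level did not overlap, but that sum follows the markers with the highest FPKM. In whole ventricle, fewer cells of a type and less RNA per cell cannot be told apart, and the part of the cardiomyocyte level in the lower Vegfb was not tested.

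Vegfc, the ligand of the lymphatic receptor, rose. It was a low gene, with 79 to 195 fragments per library, at 4.68, 7.80, 6.67 and 5.09 FPKM in controls and 8.36, 7.46, 11.04 and 10.1 FPKM under ANG II. The groups overlapped at 1 point, where ANG II 2 lay below control 2. Means were 6.06 ± 1.44 and 9.25 ± 1.63 FPKM (SD, n = 4 each), a ratio of 1.53. The log2 fold change was 0.55 (SE 0.16, 95% interval 0.19 to 0.90, limma adjusted p = 0.0251), or 0.40 relative to the median gene. The call depended on the scaling: after median-of-ratios scaling the value was 0.34 (limma adjusted p = 0.146). Quantile normalization gave 0.25 (limma adjusted p = 0.284), and scaling to general endothelial markers, described below, gave 0.23 (limma adjusted p = 0.363). Vegfc also fell short without control 1, control 4, ANG II 3 or ANG II 4, with limma adjusted p of 0.0635, 0.0692, 0.0653 and 0.0654. In these libraries the markers of fibroblasts (6 of 6 higher, summed 357 to 497 FPKM in controls and 1236 to 1392 in ANG II) and of macrophages (6 of 6 higher, 219 to 285 and 483 to 681) were higher too, and their part in the Vegfc level was not tested.

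Of the VEGF receptors, Flt4 rose, and Flt1 and Kdr did not pass the test. Flt4 stood at 5.76, 4.95, 6.07 and 6.43 FPKM in controls and at 7.91, 8.02, 8.80 and 8.62 FPKM under ANG II. The lowest ANG II library exceeded the highest control. The mean went from 5.81 ± 0.629 to 8.34 ± 0.442 FPKM (SD, n = 4 each), a ratio of 1.44. The log2 fold change was 0.46 (SE 0.089, 95% interval 0.26 to 0.66, limma adjusted p = 0.00322), under the fold threshold of 0.5, and 0.31 relative to the median gene. It was above that threshold with a pseudocount of 0.1 (0.52), by voom on fragment counts recovered from the FPKM values (0.52) and without control 4 (0.504). Leaving out any 1 library kept limma adjusted p between 0.0045 and 0.0105, whereas median-of-ratios scaling gave 0.26 (limma adjusted p = 0.0683).

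Flt1, the gene of VEGFR1, lay at 64.2, 55.1, 66.2 and 78.0 FPKM in controls and 61.7, 66.2, 72.1 and 69.7 FPKM under ANG II. The ANG II range fell inside the control range. Its log2 fold change was 0.04 (SE 0.096, 95% interval -0.17 to 0.26, limma adjusted p = 0.779), and it was -0.18 after median-of-ratios scaling, so no direction is given. Kdr, the gene of VEGFR2, was at 85.7, 69.8, 79.8 and 79.3 FPKM in controls and 71.8, 76.0, 70.9 and 65.9 FPKM under ANG II. Control 2 was the lowest control and lay within the ANG II range, and the other controls lay above it. For Kdr the log2 fold change was -0.14 (SE 0.069, 95% interval -0.29 to 0.01, limma adjusted p = 0.152), or -0.29 relative to the median gene. Without control 2 Kdr passed the test as lower, at -0.20 (limma adjusted p = 0.0374). After median-of-ratios scaling of all libraries it also passed, at -0.37 (limma adjusted p = 0.0051), where 13.1% of all genes were lower and 14.6% higher.

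The balance of the receptors within a library is the same under any scaling that multiplies a library by 1 factor, which quantile normalization does not do. Flt4 made up 3.70, 3.82, 3.99 and 3.93% of the summed FPKM of Flt1, Kdr and Flt4 in control and 5.59, 5.33, 5.80 and 5.98% under ANG II. These shares did not overlap, with means of 3.86 ± 0.127 and 5.68 ± 0.277% (SD, n = 4 each). Kdr made up 52.4 ± 2.86 and 48.4 ± 2.63%, and Flt1 43.7 ± 2.78 and 45.9 ± 2.38% (SD, n = 4 each), both with overlap. The sum of the 3 receptors was 150 ± 14.5 FPKM in controls and 147 ± 4.93 FPKM under ANG II (SD, n = 4 each). No test was run on these shares, which show an unequal change and not which receptor moved.

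**Figure D2:**
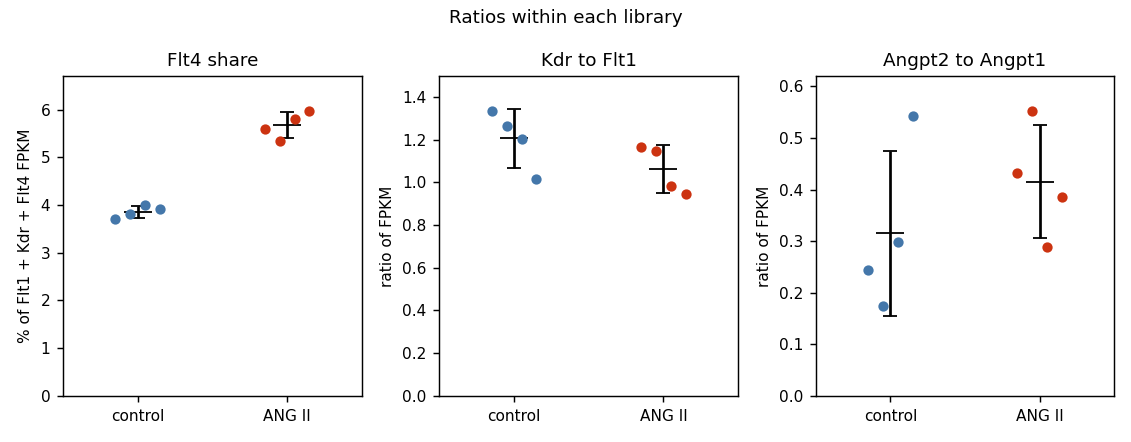
Flt4 as a percentage of the summed FPKM of the VEGF receptor genes (left), the ratio of Kdr to Flt1 (middle) and the ratio of Angpt2 to Angpt1 (right) in each control (blue) and ANG II (red) library, with means and 1 SD; axes start at 0. The Flt4 share is 3.70 to 3.99% in control and 5.33 to 5.98% in ANG II, without overlap, and both ratios overlap between groups.

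Endothelial markers bear on all receptor genes, which are made mainly by endothelial cells. General endothelial markers rose in 7 of 12 and fell in 0, their median log2 fold change was 0.28, and they had a summed level of 564 to 627 FPKM in controls and 684 to 810 FPKM under ANG II. After median-of-ratios scaling 3 of the 12 were higher and 0 lower, with a median of 0.05. Capillary markers did not move together, with 1 of 5 higher and 1 lower (Aqp1), and summed levels of 279 to 362 and 203 to 302 FPKM that overlapped. Endocardial and venous markers were higher in 3 of 5 and lower in 0, and pericyte markers were higher in 5 of 8 and lower in 1. After median-of-ratios scaling, endocardial and venous markers were higher in 2, pericyte markers higher in 3 and lower in 3, and capillary markers higher in 0 and lower in 3 of 5. Scaled so that the mean log2 level of the general endothelial markers was the same in every library, Flt4 was at 0.14 (limma adjusted p = 0.431), Kdr at -0.50 (limma adjusted p = 0.00336), Tie1 at -0.31 (limma adjusted p = 0.0109), Vegfa at -0.63 (limma adjusted p = 0.0378) and Vegfb at -0.62 (limma adjusted p = 0.000794) on the log2 scale, where 9.83% of all genes were higher and 16.2% lower. The markers themselves spread under this scaling, with 2 of the 12 higher and 2 lower. Robo4 was at -0.37 (limma adjusted p = 0.0295) and Cldn5 at -0.37 (limma adjusted p = 0.0311). The value of Tie1 thus lay within the range of these general markers and that of Kdr below it. Capillary markers had a median of -0.72 under this scaling, with 3 of 5 lower and 0 higher, so Kdr lay above that median. A rise of Flt4 was not detectable under this scaling.

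**Figure D3:**
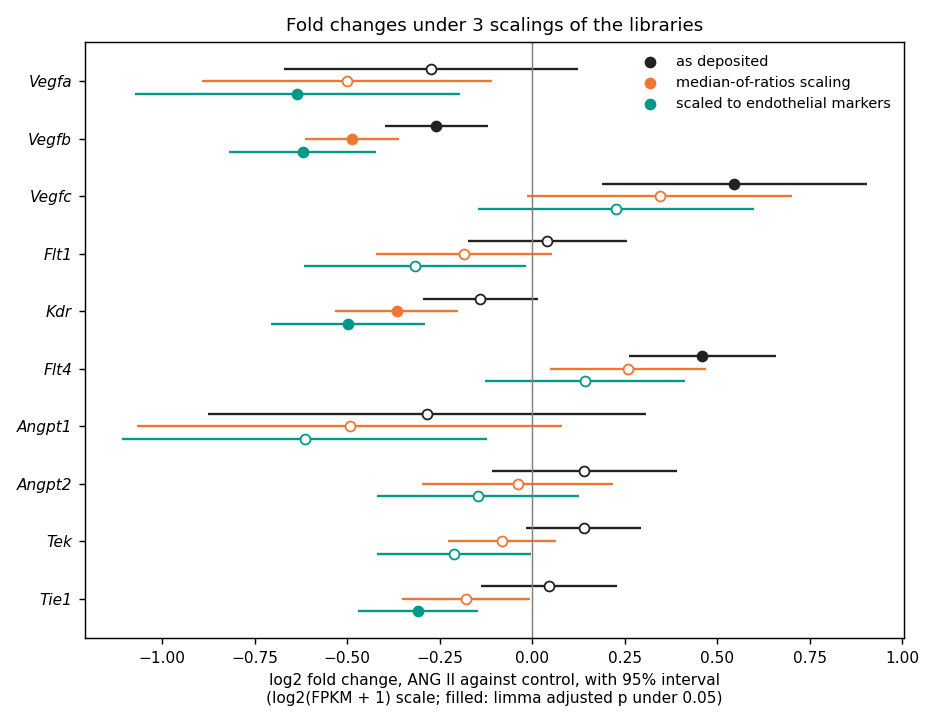
Log2 fold change of each gene (horizontal axis, log2(FPKM + 1) scale, ANG II against control) with its 95% interval as deposited (black), after median-of-ratios scaling (orange) and scaled to the general endothelial markers (green); filled points have a limma adjusted p under 0.05. Vegfb is filled under each of the 3 scalings, Kdr under the 2 rescalings, Vegfc and Flt4 only as deposited, and Flt1, Angpt2, Tek and Tie1 change sign between scalings.

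Lymphatic markers were read beside Flt4 and Vegfc. Of 6, Pdpn, Ccl21a and Reln were higher, Prox1, a transcription factor of lymphatic endothelium, was lower, and Lyve1 and Mmrn1 did not pass the test. After median-of-ratios scaling 2 were higher and 1 lower, and Reln did not pass (0.31, limma adjusted p = 0.089). Their summed level was 49.3 to 57.8 FPKM in controls and 62.7 to 80.9 FPKM under ANG II. Prox1 was at 17.4 to 22.7 FPKM in controls and 11.7 to 16.2 FPKM in ANG II, and its log2 fold change was -0.40 (SE 0.11, limma adjusted p = 0.0206). Lyve1, a receptor on lymphatic vessels and some macrophages, was at 0.05 (SE 0.11, limma adjusted p = 0.791). Prox1 was thus the only lymphatic marker to pass as lower, while 3 of the 6 were higher. Its control mean, 19.4 FPKM, was above that of Flt4, 5.81 FPKM. Cardiomyocyte markers were lower in the same libraries (4 of 8, median log2 fold change -0.30). The part of either cell type in the Prox1 and Flt4 levels was not tested.

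**Figure D4:**
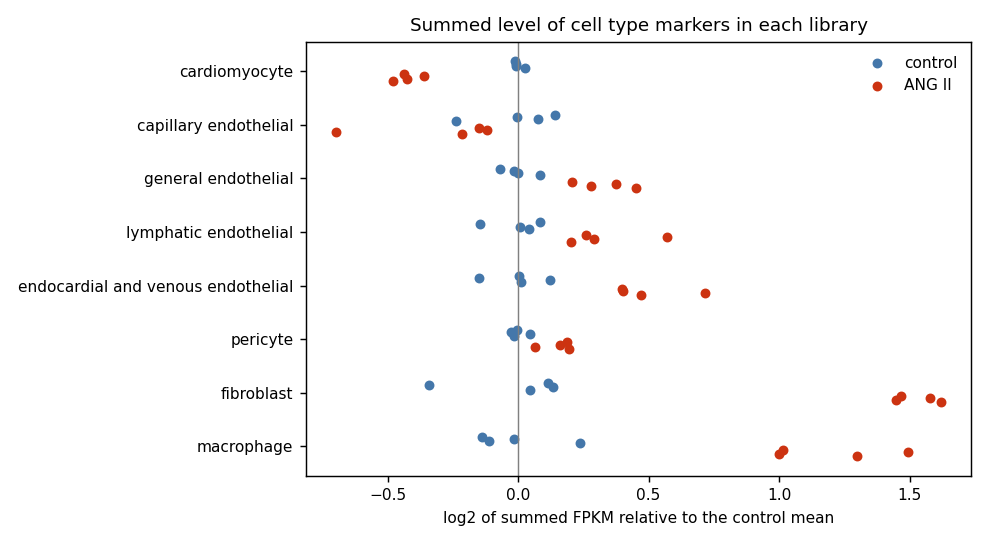
Summed FPKM of the markers of 8 cell types of the heart and its vessels (vertical axis) in each control (blue) and ANG II (red) library, as log2 relative to the control mean (horizontal axis). Cardiomyocyte sums are lower in the ANG II libraries, capillary sums overlap, and the other 6 sums plotted are higher. Those of fibroblasts and macrophages lie farthest from the controls. Sums depend most on markers with high FPKM and are not cell counts. Mean Col1a1 (fibroblast) was 64.7 FPKM in controls and 608 FPKM in ANG II libraries. Ccl21a (lymphatic) was at 12.7 and 26.5 FPKM, and Rgs5 (pericyte) at 340 and 402 FPKM.

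The angiopoietin and Tie genes did not pass the test, either by limma on log2(FPKM + 1) or by voom. Angpt1, whose protein activates Tie2, was at 15.9, 17.3, 10.9 and 7.43 FPKM in controls and 9.00, 7.65, 15.5 and 8.93 FPKM under ANG II. Controls 1 and 2 and ANG II 3 were high and the rest low, so the spread within each group covered the difference between them, with coefficients of variation of 35.4% in control and 34.5% in ANG II. The log2 fold change was -0.28 (SE 0.26, 95% interval -0.88 to 0.31, limma adjusted p = 0.446). With 1 library left out it ranged from -0.50 (without control 4) to -0.13 (without control 2), and 0 of these fits passed. After median-of-ratios scaling it was -0.49 (limma adjusted p = 0.193). An antisense gene, Gm17473, covers 14.2% of the exon length of Angpt1, and without stated strand use their reads cannot be told apart.

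Angpt2, the antagonist that activated endothelium stores and releases, had the lowest mean FPKM of the 10 genes in both groups, on 93 to 143 fragments per library. It was at 3.88, 3.02, 3.27 and 4.04 FPKM in controls and 3.88, 4.23, 4.49 and 3.45 FPKM under ANG II, which overlapped. Its log2 fold change was 0.14 (SE 0.11, 95% interval -0.11 to 0.39, limma adjusted p = 0.373). The ratio of Angpt2 to Angpt1 was 0.244, 0.174, 0.299 and 0.543 in control and 0.432, 0.553, 0.290 and 0.386 under ANG II, with means of 0.315 ± 0.160 and 0.415 ± 0.109 (SD, n = 4 each). The highest control ratio lay near the highest ANG II ratio, and the groups overlapped.

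Tek, the gene of Tie2, was the steadiest of the 10 genes in control, at 25.6, 24.9, 24.3 and 25.6 FPKM, and stood at 28.0, 24.2, 29.3 and 29.9 FPKM under ANG II. In ANG II, 3 of 4 libraries were above each control and ANG II 2 was below them. The log2 fold change was 0.14 (SE 0.070, 95% interval -0.02 to 0.30, limma adjusted p = 0.159), and without ANG II 2 it was 0.20 (limma adjusted p = 0.0236). Tie1 was at 38.4, 38.4, 36.6 and 33.8 FPKM in controls and 40.3, 33.0, 42.9 and 36.3 FPKM under ANG II. Its groups overlapped, and its log2 fold change was 0.05 (SE 0.083, 95% interval -0.14 to 0.23, limma adjusted p = 0.715). After median-of-ratios scaling Angpt2, Tek and Tie1 stood at -0.04, -0.08 and -0.18, so the sign of each depends on the scaling.

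The order of the genes by mean FPKM was the same in both groups: Vegfa, Vegfb, Kdr, Flt1, Tie1, Tek, Angpt1, Vegfc, Flt4 and Angpt2. The ranges of neighbours overlapped for Kdr and Flt1, Angpt1 and Vegfc, and Vegfc and Flt4. Within libraries, Kdr was above Flt1 in 4 of 4 controls and 2 of 4 ANG II libraries, Angpt1 above Vegfc in 4 and 3, and Vegfc above Flt4 in 2 and 3. FPKM is a level per length of transcript, and the length behind these values was the mean over annotated transcripts, which for Vegfa was 1230 bases against 3451 for its longest transcript, so levels between genes depend on that choice. In GENCODE M21 (GRCm38) the genes that passed the test lie at chr19:6982473-6987651 on the minus strand (Vegfb), chr8:54077606-54187096 on the plus strand (Vegfc) and chr11:49609263-49652739 on the plus strand (Flt4).

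Other genes of the pathway were read in 4 lists. Of 47 genes, 19 were higher, 4 were lower and 24 did not pass the test, with a median log2 fold change of 0.23. Among all genes 28.4% were higher and 4.91% lower. Of the 47 genes 12 were called (11 higher, 1 lower), against 15.4% of all genes. The split depended on the scaling. After median-of-ratios scaling 11 were higher and 7 lower (median 0.02), against 14.6% and 13.1% of all genes. Scaled to the endothelial markers 9 were higher and 9 lower (median -0.10), against 9.83% and 16.2% of all genes. Among other ligands and co-receptors, 5 of 10 were higher and 0 lower, with a median of 0.28, and 3 were higher after median-of-ratios scaling. Vegfd, the further ligand of VEGFR3, was at 1.07, 1.20, 0.936 and 1.10 FPKM in controls and 4.22, 3.76, 6.02 and 5.53 FPKM under ANG II. Each ANG II library was above each control, and the log2 fold change was 1.49 (SE 0.14, limma adjusted p = 5.66e-05). Scaled to the endothelial markers it was 1.24 (limma adjusted p = 0.000225), so both ligands of VEGFR3 were higher as deposited, and Vegfd also under that scaling. Svep1, a matrix protein known to bind Tie1, rose by 1.92 (SE 0.14, limma adjusted p = 1.28e-05), from 3.29 to 4.49 FPKM in control to 13.2 to 19.8 FPKM under ANG II. Itgb1, the integrin chain that associates with VEGF receptors, rose by 0.57 (limma adjusted p = 7.22e-05), and by 0.35 after median-of-ratios scaling, but did not pass when scaled to the endothelial markers (limma adjusted p = 0.0969).

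The remaining genes of that list named here had smaller values. Nrp2, the co-receptor that favours VEGF-C, rose by 0.30 (SE 0.086, limma adjusted p = 0.0225), a rise that median-of-ratios scaling left at 0.08 (limma adjusted p = 0.479). For Ptprb, the phosphatase that holds Tie2 in check, the value was 0.24 (SE 0.045, limma adjusted p = 0.00268), and 0.02 after that scaling (limma adjusted p = 0.834). Nrp1, the co-receptor of VEGFR2, had a value of 0.10 (limma adjusted p = 0.120), which turned to -0.13 after that scaling and to -0.26 when scaled to the endothelial markers (limma adjusted p = 0.0451). Pgf, the placental ligand of VEGFR1, was at 0.20 (limma adjusted p = 0.346), and at 0.013 and -0.097 under these rescalings.

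In the signal relay list, 4 of 12 were higher and 2 lower (median 0.17), against 1 and 2 after median-of-ratios scaling, and Src, a kinase downstream of VEGFR2, was called at 0.84 (SE 0.11, limma adjusted p = 0.000455). Among target genes in endothelium, 3 of 14 were higher and 1 lower (median 0.18), against 3 and 3 after that scaling. Cxcr4, the chemokine receptor of tip cells and leukocytes, rose by 1.16 (SE 0.23, limma adjusted p = 0.00411) and Egr3, an immediate early factor, by 1.00 (SE 0.19, limma adjusted p = 0.00337). Klf2, a factor induced by shear stress, dropped by 0.72 (SE 0.10, limma adjusted p = 0.000576), from 42.8 to 54.5 FPKM in control to 25.5 to 33.8 FPKM under ANG II. In the oxygen response list, 7 of 12 were higher and 1 lower (median 0.31). After median-of-ratios scaling 4 were higher and 2 lower, against 14.6% and 13.1% of all genes. The list was led by Car9 (1.06, SE 0.14, limma adjusted p = 0.000406), Bnip3 (0.97, SE 0.10, limma adjusted p = 0.000102) and Slc2a1 (0.83, SE 0.073, limma adjusted p = 4.22e-05). Car9 makes a carbonic anhydrase, Bnip3 a mitophagy receptor and Slc2a1 the glucose transporter GLUT1. Car9 rested on 4 to 34 fragments per library. Vegfa, itself a target of the oxygen response, was at -0.27 in these libraries and did not pass the test.

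**Figure D5:**
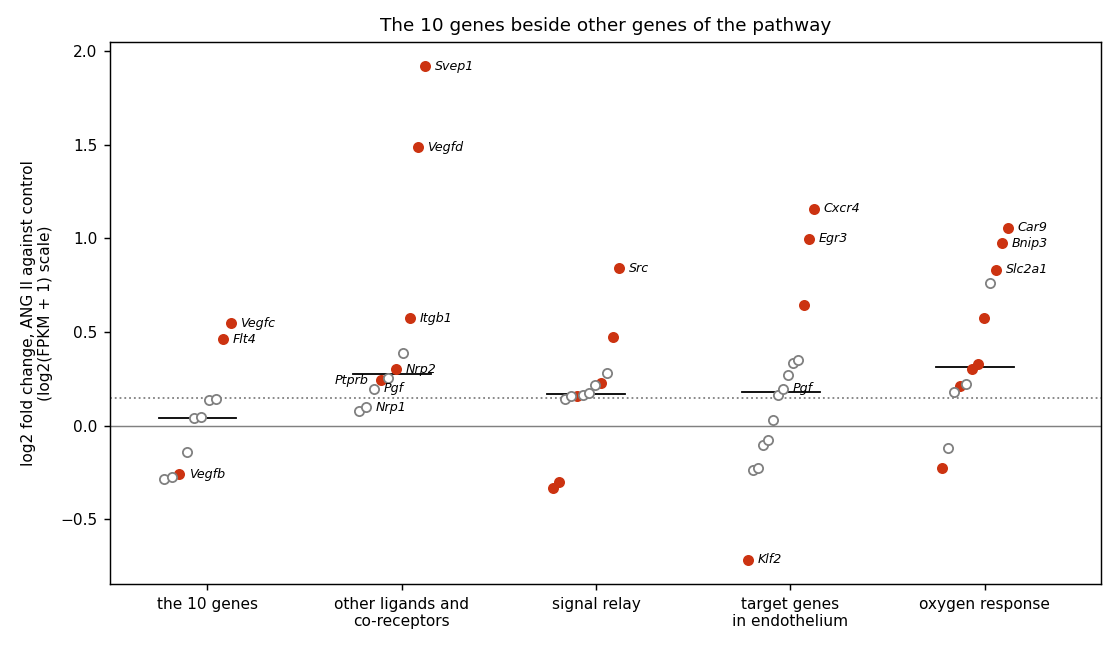
Log2 fold change (vertical axis, log2(FPKM + 1) scale, ANG II against control) of the 10 genes and of the genes in each of the 4 lists (horizontal axis); red points have a limma adjusted p under 0.05, bars are list medians and the dotted line is the median of all genes, 0.15. Svep1 (1.92) and Vegfd (1.49) lie above each of the 10 genes, and Klf2 (-0.72) lies below them.

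Markers of cells that are not part of the vessel wall completed the check of the samples. Erythroid markers were higher in 5 of 5, with a summed level of 96.8 to 487 FPKM in controls and 581 to 2083 FPKM under ANG II, and the 4 mesothelial markers did not pass the test, with summed levels of 1.74 to 5.01 and 0.939 to 4.90 FPKM. Their part in the values above was not tested.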

How the data were processed

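RNA-seq libraries of 4 control and 4 ANG II left ventricles were analysed, grouped by title. The authors deposited 1 table of FPKM values with a column per library. The submitters' processing notes name Bowtie2, HISAT and RSEM, and the genome build, annotation and use of strand are not given in the sources used here. The steps of the deposited FPKM values, with mean transcript lengths from GENCODE M21, gave 14455654 to 16564828 fragments per library. In each library over 98% of values under 60 fragments were whole within 0.05.

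Genes averaging 0.1 FPKM or more were fitted with limma 3.58.1 (R 4.3.3, variance trend) on log2(FPKM + 1), without covariate, and p-values were two-sided and adjusted over all 19364 genes by Benjamini-Hochberg. This scale understates changes of low genes. The study names limma and both thresholds. The script was tested on simulated data. Ratios within libraries were described without a test. Promoters came from RefSeq and motifs were searched with Python 3.11.15.

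The 10 genes and the lists were chosen with earlier results of these data known. Of the lists, up to 3 called genes with the largest absolute log2 fold change were named, plus Pgf, Vegfd, Nrp1, Nrp2 and Ptprb. Lymphatic, capillary and endothelial markers were named after their values were seen. Alternatives changed the pseudocount, filter, scaling, variance trend, replicate block, count model, fold threshold and libraries.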

Additional observations from a re-analysis of the deposited data

How the results depend on the processing

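The count of called genes among the 10 was 1. It was 2 with a pseudocount of 0.1 and with voom on recovered fragments (Vegfc and Flt4, higher), 2 with scaling to endothelial markers (Vegfa and Vegfb, lower), and 0 with median-of-ratios scaling, quantile normalization, scaling without mitochondrial and top genes, and a fold threshold of 1. Without a fold threshold it was 3, and with 1 library left out it ranged from 0 to 1, at 0 without control 1, ANG II 3 or ANG II 4, and with Flt4 in place of Vegfc without control 4. Over all genes the count called moved as well. It was 2981 of 19364 as deposited, 3816 of 19364 with a pseudocount of 0.1 and 3996 of 19076 with voom. With median-of-ratios scaling it was 2475 of 19325, with quantile normalization 2398 of 19373, and scaled to endothelial markers 2701 of 19350. The shifts among the 10 are therefore not read as particular to these genes. The count of other pathway genes was 12 to 14 under the 4 alternatives run for it, but its split moved from 11 higher and 1 lower to 9 and 3 after median-of-ratios scaling and 7 and 6 when scaled to endothelial markers. Under median-of-ratios scaling, quantile normalization and scaling to endothelial markers, in that order, the log2 fold change of Flt1 was -0.18, -0.13 and -0.32, of Angpt2 -0.040, -0.18 and -0.15, of Tek -0.082, -0.072 and -0.21, and of Tie1 -0.18, -0.14 and -0.31, each of the opposite sign to the deposited scale. Without mitochondrial and top genes, Flt1 was -0.10, Tek -0.0033 and Tie1 -0.098. With 1 library left out, Flt1 ranged from -0.039 (without control 2) to 0.12 and Tie1 from -0.012 (without ANG II 3) to 0.11. Vegfb, Vegfa, Kdr and Angpt1 stayed negative, and Vegfc and Flt4 positive, under 18 of 18 alternatives. Adjusted p was under 0.05 in 18 of these for Vegfb, 15 for Flt4, 10 for Vegfc, 5 for Kdr, 2 for Vegfa, 1 for Tek (without ANG II 2), 1 for Tie1 (scaled to endothelial markers) and 0 for Flt1, Angpt1 and Angpt2. Except for the construction of each scaling, which sets another level as constant, the cause was not tested. Replicate numbers were not shown to pair the libraries. Deviations of same-numbered libraries correlated at -0.032 to 0.062 and 2 of 8 libraries correlated best with their own number. With the replicate number as a block, the count of called genes was 1, and 0 of the 10 genes crossed the adjusted p threshold. Depth limits genes with few fragments, such as Car9, Vegfd, Egr3, Vegfc and Angpt2, and 4 libraries per group limit Vegfa and Angpt1.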
